A study of Mus musculus with 28 samples.

Results

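The genes described here were 40 interferon-stimulated genes outside the Oas family, measured by polyA RNA-seq in mouse epidermis from which the X-linked histone demethylase gene Kdm6a (Utx) had been deleted with a Krt14-Cre transgene. They were taken as a list of gene symbols known to be induced by interferon, and all 40 were found among the 24946 gene symbols of each of 4 deposited tables of normalized read counts. The list was chosen with earlier results of these data known. The keratin-14 promoter drives Cre in keratinocytes of stratified epithelia, so recombination was directed to the keratinocytes and not to the immune cells that also live in the epidermis. The 4 tables held young females with 4 control and 5 conditional knockout (cKO) libraries, young males with 3 and 3, aged females with 2 and 2, and aged males with 3 and 3. "Young" and "aged" are the words of the deposited tables, and the ages themselves are not given in the sources used here. Female controls were Cre-; Utx fl/fl and female cKO libraries Cre+; Utx fl/fl. Male controls were Cre-; Utx fl/Y, except young male control 3, which was Cre-; Utx +/Y and carried no floxed allele, and male cKO libraries were Cre+; Utx fl/Y. Another 3 libraries came from Cre+; Utx +/fl heterozygous females and are known here through the authors' comparison table alone. Every control is labelled Cre-, so by the labels the effect of deleting Kdm6a and that of carrying the transgene cannot be told apart. The labels do not say that replicates were separate animals, so p-values measure the spread between these libraries.

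Interferons are secreted proteins that warn cells of viral or other nucleic acid danger. Type I interferon binds the receptor IFNAR, the kinases JAK1 and TYK2 are activated, and STAT2 and IRF9 act in the complex ISGF3, which binds interferon-stimulated response elements in the promoters of its target genes. The products of those genes sense foreign RNA and DNA, block translation, destroy or edit RNA, trap virus particles at membranes, and in part feed back on the pathway itself. In skin both keratinocytes and resident immune cells can respond, and interferon-stimulated genes are known for their high levels in psoriatic and lupus lesions and in healing wounds.

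The binding element of ISGF3 is a pair of GAAA blocks set a short step apart, which reads as TTTC blocks on the other strand. The sequence GAAANNGAAA was searched on both strands of RefSeq promoters (GRCm38.p6, 250 bases before to 50 bases after the start of each gene). Of the 40 genes 30 had a promoter in the table, and 17 of the 30 (56.7%) held the sequence, against 1079 of 27025 genes (3.99%) in the whole table. Among the members with a promoter, it was present in 6 of the 14 that were higher in young female cKO libraries by the test below and in 11 of the 16 that were not. The stretches below show the element in genes that stand for the main roles: a signal transducer (Stat2), RNA-binding effectors (Ifit1 and Ifit3), the ubiquitin-like modifier (Isg15), a ubiquitin ligase (Trim30a), a GTPase (Gbp7), a virus tether (Bst2) and an antiviral enzyme (Rsad2). Each is written 5′ to 3′ on the strand of its gene, and capitals mark every match, adjoining or overlapping matches included.
Stat2 promoter, chr10:128270251-128270310, + strand: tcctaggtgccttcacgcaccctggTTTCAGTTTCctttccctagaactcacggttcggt
Ifit1 promoter, chr19:34640760-34640838, + strand: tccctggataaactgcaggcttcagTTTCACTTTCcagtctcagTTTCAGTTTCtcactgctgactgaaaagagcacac
Ifit3 promoter, chr19:34583348-34583441, + strand: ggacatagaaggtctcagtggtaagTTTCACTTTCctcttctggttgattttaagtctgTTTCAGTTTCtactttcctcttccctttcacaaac
Gbp7 promoter, chr3:142530258-142530317, + strand: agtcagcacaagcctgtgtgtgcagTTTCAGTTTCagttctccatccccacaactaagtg
Isg15 promoter, chr4:156200850-156200921, - strand: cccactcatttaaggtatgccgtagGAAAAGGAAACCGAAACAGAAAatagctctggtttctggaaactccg
Trim30a promoter, chr7:104465195-104465254, - strand: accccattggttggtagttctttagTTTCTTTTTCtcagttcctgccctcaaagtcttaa
Bst2 promoter, chr8:71537562-71537627, - strand: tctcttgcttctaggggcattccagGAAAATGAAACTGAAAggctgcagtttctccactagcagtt
Rsad2 promoter, chr12:26456538-26456597, - strand: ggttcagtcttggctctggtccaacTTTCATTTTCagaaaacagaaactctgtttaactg
Ifit1, Ifit3 and Bst2 held 2 matches each in these stretches and Isg15 held 3. The Ifit3b promoter carried the same stretch as that of Ifit3, letter for letter, at chr19:34607744-34607837 on the + strand, and these neighbouring genes are near copies of each other. A match describes letters in a window and is not a measured binding site.

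Kdm6a, which checks the labels, was lower in cKO libraries of every table on average. Its mean normalized read count was 1445 ± 171 (SD, n = 4) in controls and 1019 ± 106 (SD, n = 5) in cKO libraries of young females, a decrease in all 5 cKO libraries against all 4 controls (exact two-sided permutation test, p = 0.00794). In young males it was 966 ± 196 (SD, n = 3) in controls and 502 ± 61.7 (SD, n = 3) in cKO libraries, again without overlap (exact permutation test, p = 0.1, the smallest that 3 against 3 allows). In aged females it was 3109 ± 364 (SD, n = 2) in controls and 1336 ± 52.4 (SD, n = 2) in cKO libraries (exact permutation test, p = 0.333, the smallest that 2 against 2 allows). In aged males the groups overlapped: Kdm6a was 1089.7, 1224 and 1511 in the libraries labelled control 4 to 6 and 584, 1322 and 673 in those labelled cKO 4 to 6 (exact permutation test, p = 0.3). Gh, the growth hormone transcript, was between 331 and 866 in every library labelled cKO except the one labelled cKO 5 of aged males and at most 2.58 in controls, but the aged male libraries labelled control 5 and control 6 had Gh at 2443 and 559 and the library labelled cKO 5 had none. Aged male results are therefore written by label and are given with and without those 3 libraries. The normalized read counts of a library summed to between 19324729 and 31147915, and 16405 to 17923 genes were above 0. Read depth per library is unknown, and the 8 keratinocyte markers (Krt14, Krt10 and others) summed to at least 624706 in every library.

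In young females the interferon-stimulated genes were higher in cKO than in control epidermis. Of the 40 genes, 39 passed the filter on low values (at least 10 in 4 libraries), 18 rose and 0 fell by limma with Benjamini-Hochberg adjustment over 13898 genes. Of all genes tested 1.54% rose and 2.4% fell. The median log2 change of the 40 genes, cKO minus control on the log2(value + 1) scale, was 1.08, against -0.01 over all genes tested. Of the 40 changes 39 were above 0, against 49.0% of all genes tested. In 22 of the 40 genes every cKO library lay above every control, against 3.74% of all genes tested. This fit had no block for the series of library numbers, a block with which more genes rose, as given below. The genes that rose without it were Irf7 among 4 transcription factors, Ifih1 and Dhx58 among 4 sensors, Ifit1 among 4 Ifit genes and none of 5 GTPases. They were also Isg15, Herc6 and Trim30a among 5 genes of the ISG15 and ubiquitin system, Parp9 of 2 ADP-ribosyltransferase genes, Adar and Samd9l among 3 genes of RNA and translation, and 8 of 13 other effectors. Values of single libraries below are normalized read counts. The largest changes were those of Ifi44 and Ifi27l2a, and in a bulk tissue more cells of a type and more RNA per cell cannot be told apart.

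**Figure D1:**
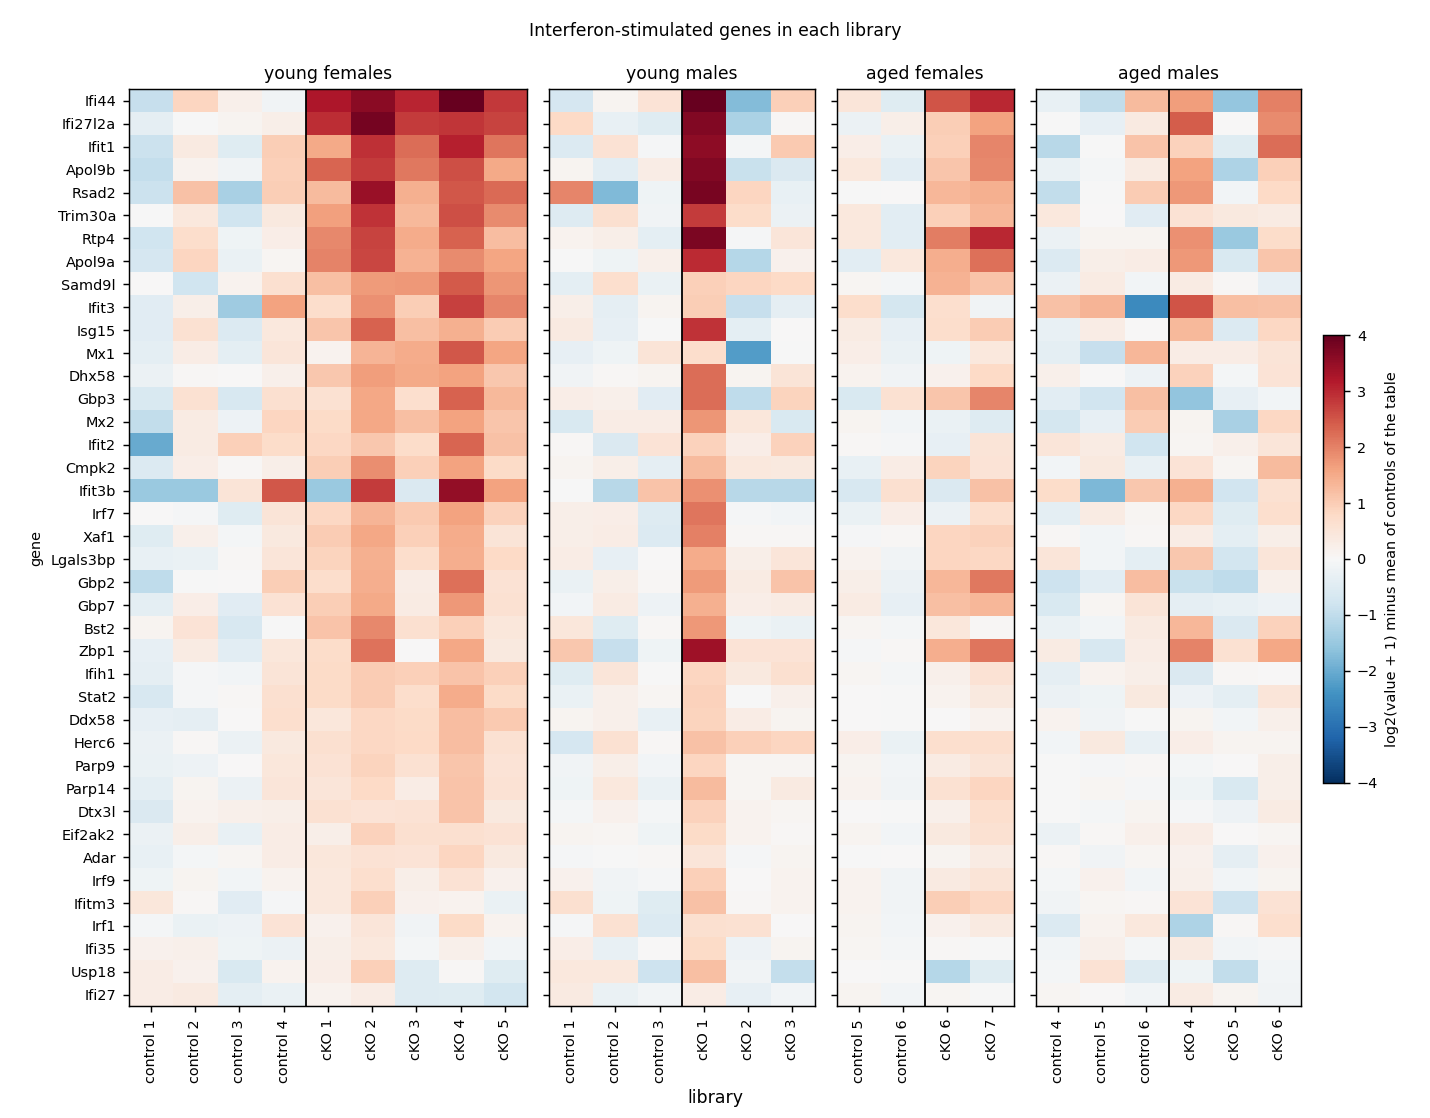
Each row is 1 of the 40 genes, ordered by its change in young females, and each column 1 library, with a black line between control and cKO libraries of a table. Colour gives log2(value + 1) minus the mean of the controls of the same table, with red higher and blue lower and colours ending at 4 in either direction. All 5 young female cKO columns are mostly red, as is young male cKO 1, whose highest gene reached 4.31, while young male cKO 2 and 3, with medians of 0.04 and 0.12, lie close to the controls.

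Among the transcription factors, Irf7, the main amplifier of type I interferon genes, was 297, 284, 212 and 421 in controls 1 to 4 and 523, 756, 605, 893 and 563 in cKO 1 to 5 of young females. Every cKO library lay above every control, and Irf7 rose by 1.15 on the log2 scale (SE 0.21, adjusted p = 0.0141). Stat2, the signal transducer of ISGF3, was 644, 969.6, 1029 and 1573 in controls 1 to 4 and 1723, 2036, 1624, 2826 and 1696 in cKO 1 to 5. Its cKO values also lay above all controls, but control 4 came close to the lowest cKO library, and its change of 0.95 was the nearest to the threshold among the genes not called (SE 0.24, adjusted p = 0.0555). Irf9, the DNA-binding subunit of ISGF3, had a change of 0.42 (SE 0.12, adjusted p = 0.0937) with no overlap between the groups. Irf1, a factor that answers mainly to interferon gamma, was 1122, 998, 1035 and 1738 in controls 1 to 4 and 1349.8, 1671, 1069, 2019 and 1326 in cKO 1 to 5. Its groups overlapped, with a change of 0.29 (SE 0.21, adjusted p = 0.54).

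The sensors of foreign nucleic acid were led by the RNA helicases. Dhx58 encodes LGP2, which has no signalling domain of its own and tunes the other helicases, and it was 72.8, 87.8, 86.5 and 97.8 in controls 1 to 4 and 182, 277, 248, 265 and 183 in cKO 1 to 5 of young females. The groups were far apart, and Dhx58 rose by 1.40 (SE 0.18, adjusted p = 0.00195). Ifih1 encodes MDA5, a sensor of long double-stranded RNA, and was 458.5, 581, 552 and 850.3 in controls 1 to 4 and 1014, 1206, 1141, 1315 and 1163 in cKO 1 to 5. All cKO values exceeded the controls, a rise of 0.97 (SE 0.16, adjusted p = 0.00921). Ddx58, which encodes the helicase RIG-I, had a change of 0.87 (SE 0.22, adjusted p = 0.0557), and its groups overlapped. Zbp1, a sensor of Z-form nucleic acid that can start necroptosis, varied more among cKO libraries, at 63.6, 101, 59.2 and 109 in controls 1 to 4 and 135, 367, 81.8, 239 and 105 in cKO 1 to 5. Its change of 0.98 did not pass the test (SE 0.41, adjusted p = 0.26).

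Ifit proteins bind viral RNA ends and halt its translation, and their 4 genes lie near each other on chromosome 19, from Ifit2 at chr19:34550694-34576419 through Ifit3 at chr19:34583531-34588731 and Ifit3b at chr19:34607970-34613401 to Ifit1 at chr19:34640871-34650009 (GRCm38, GENCODE M21, as all gene positions here). Ifit1, whose promoter is shown above, was 37.3, 89.4, 49.4 and 137.1 in controls 1 to 4 and 197, 525, 331, 599.9 and 311 in cKO 1 to 5 of young females. Control 4 was the highest control and cKO 1 the lowest cKO library, without overlap, and Ifit1 rose by 2.38 (SE 0.41, adjusted p = 0.0108). Ifit3 had a change of 1.64 (SE 0.60, adjusted p = 0.188) and Ifit2 one of 1.23 (SE 0.60, adjusted p = 0.333), both at low values and with overlapping groups. Ifit3b was below the filter. Of the transcript 50-mers of Ifit3 51.2% also occur in Ifit3b, so the values of these near copies are uncertain where reads were shared.

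None of the 5 interferon-induced GTPase genes passed the unblocked limma test in young females, with changes above 0 in all 5 and a median of 1.25. With the series of library numbers as a block Mx1, Mx2 and Gbp7 passed (adjusted p = 0.0402, 0.0311 and 0.0467), and the authors' deposited table called Mx1, Mx2, Gbp3 and Gbp7 higher (adjusted p = 0.00747, 0.0204, 0.0356 and 0.0195). Mx1 and Mx2, the latter annotated as a polymorphic pseudogene, belong to the family of dynamin-like GTPases that block incoming virus particles, and Gbp2, Gbp3 and Gbp7 encode guanylate-binding proteins that coat vacuoles of microbes. Mx2 had the smallest adjusted p of the group (1.25, SE 0.35, adjusted p = 0.0813), with 17.7, 45.5, 30.9 and 65.3 in controls 1 to 4 and 61.4, 108, 83.4, 112.1 and 79.1 in cKO 1 to 5. Gbp2, which answers strongly to interferon gamma, was 335, 671, 685 and 1345 in controls 1 to 4 and 1105, 1842, 829.8, 3108 and 997 in cKO 1 to 5. Its change was 1.04 (SE 0.44, adjusted p = 0.255). The changes of Mx1, Gbp3 and Gbp7 were 1.41, 1.29 and 1.03. In all 5 GTPases the groups overlapped.

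In the ISG15 and ubiquitin system, Isg15, a ubiquitin-like protein that is attached to other proteins, was 204, 426, 191 and 376 in controls 1 to 4 and 607, 1448, 647, 758 and 571 in cKO 1 to 5 of young females. The lowest cKO library stood above the highest control, and Isg15 rose by 1.42 (SE 0.32, adjusted p = 0.0329). Herc6, which encodes the ligase that attaches ISG15 in mice, was 134, 163, 133 and 206 in controls 1 to 4 and 243, 278, 275, 373 and 238 in cKO 1 to 5. It rose by 0.82 without overlap (SE 0.18, adjusted p = 0.0301). Trim30a, a ubiquitin ligase that restrains inflammatory signalling, was 32.4, 43.9, 18.2 and 43.5 in controls 1 to 4 and 104, 250.2, 80.9, 199 and 123 in cKO 1 to 5. The groups were again apart, with a rise of 2.06 (SE 0.37, adjusted p = 0.0129). Dtx3l, a ubiquitin ligase that works in a complex with PARP9, had a change of 0.66 (SE 0.19, adjusted p = 0.0973). Usp18, the protease that removes ISG15 and dampens IFNAR signalling, was 753, 683, 396 and 670.5 in controls 1 to 4 and 725, 1181, 428, 622 and 435 in cKO 1 to 5. Apart from cKO 2 the Usp18 values of the groups covered much the same range, with a change of 0.05 (SE 0.30, adjusted p = 0.947).

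Parp9, an ADP-ribosyltransferase family member whose gene overlaps Dtx3l head to head at chr16:35938470-35972605, was 736, 758, 897 and 1206 in controls 1 to 4 and 1319, 1624, 1357, 1893 and 1296 in cKO 1 to 5 of young females. No control reached a cKO value, and Parp9 rose by 0.75 (SE 0.17, adjusted p = 0.032). Its relative Parp14 had a change of 0.66 (SE 0.20, adjusted p = 0.114). Samd9l, an interferon-induced inhibitor of growth and translation, was 102, 58.1, 112.8 and 157 in controls 1 to 4 and 236, 329, 339.8, 559 and 346 in cKO 1 to 5. The lowest cKO value was above the highest control, and Samd9l rose by 1.77 (SE 0.29, adjusted p = 0.00961). Adar, which edits adenosine to inosine in double-stranded RNA and so hides self RNA from MDA5, was 1037, 1191, 1335 and 1533 in controls 1 to 4 and 1715, 1884, 1846, 2301 and 1644 in cKO 1 to 5. It rose by 0.56 without overlap (SE 0.13, adjusted p = 0.0398). Eif2ak2, which encodes the kinase PKR that stops translation on double-stranded RNA, had a change of 0.61 (SE 0.17, adjusted p = 0.0757).

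The other effectors held the genes with the widest gap. Ifi27l2a, a small membrane protein of the ISG12 family, was 110.6, 141, 154 and 168 in controls 1 to 4 and 1111, 2013, 983, 1038 and 922 in cKO 1 to 5 of young females. The means were 143.3 ± 24.4 (SD, n = 4) in controls and 1213 ± 453 (SD, n = 5) in cKO libraries. Every cKO library was several times above every control, cKO 2 being the highest, and Ifi27l2a rose by 3.03 (SE 0.22, adjusted p = 7.31e-05), the smallest adjusted p of the 40 genes. Its neighbour Ifi27, of the same family and next to it on chromosome 12 (chr12:103434211-103440239 and chr12:103442167-103443680), was 3218, 3393, 2021 and 2173 in controls 1 to 4 and 2870.4, 3238, 1843, 1889 and 1583 in cKO 1 to 5. The Ifi27 groups overlapped and its change was -0.26 (SE 0.24, adjusted p = 0.635). Ifi44, an interferon-induced cytoplasmic protein, was 7.84, 29.7, 18.2 and 14.3 in controls 1 to 4 and 156, 203, 138.1, 321 and 119 in cKO 1 to 5. All cKO values lay far above the controls, a rise of 3.39 (SE 0.38, adjusted p = 0.00104).

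Rsad2 and Cmpk2 are neighbours on chromosome 12 (chr12:26442746-26456452 and chr12:26469204-26479837) and work in series on nucleotides: Cmpk2 is a mitochondrial nucleotide kinase, and Rsad2 encodes viperin, which makes a chain-terminating nucleotide. Cmpk2 was 35.1, 63.6, 54.6 and 61.0 in controls 1 to 4 and 104, 193, 102, 161 and 89.4 in cKO 1 to 5 of young females. All cKO values were above the controls, and Cmpk2 rose by 1.23 (SE 0.27, adjusted p = 0.0322). Rsad2 had a larger change with a wider spread, 2.18 (SE 0.60, adjusted p = 0.077), also without overlap. Bst2 encodes tetherin, which holds budding virus at the membrane, and had a change of 1.02 (SE 0.30, adjusted p = 0.102). Ifitm3, which blocks fusion of virus in endosomes, had one of 0.29 (SE 0.23, adjusted p = 0.592), and Ifi35, a cytoplasmic partner of NMI, one of 0.13 (SE 0.14, adjusted p = 0.69). The groups overlapped in Bst2, Ifitm3 and Ifi35.

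Xaf1, which counters the apoptosis inhibitor XIAP, was 114.6, 185, 152 and 211 in controls 1 to 4 and 325, 477, 314, 456 and 231 in cKO 1 to 5 of young females. It rose by 1.11 (SE 0.24, adjusted p = 0.0303). Rtp4, a chaperone for G protein-coupled receptors with antiviral activity, was 59.9, 169.7, 93.2 and 125 in controls 1 to 4 and 394, 693, 296, 534 and 245 in cKO 1 to 5. Its rise was 1.94 (SE 0.35, adjusted p = 0.0132). Lgals3bp, a secreted glycoprotein that binds galectins, was 269.7, 273, 342 and 461.6 in controls 1 to 4 and 608, 889.7, 541, 905 and 567 in cKO 1 to 5. It rose by 1.06 (SE 0.21, adjusted p = 0.0216). In Xaf1, Rtp4 and Lgals3bp no control reached the lowest cKO library. Apol9a, of the apolipoprotein L family, was 62.7, 181, 82.5 and 105 in controls 1 to 4 and 400.4, 636, 263, 373 and 302 in cKO 1 to 5. The rise was 1.91 (SE 0.32, adjusted p = 0.00998). Its near copy Apol9b was 25.7, 55.3, 45.8 and 98.0 in controls 1 to 4 and 259, 358, 220.2, 305 and 146 in cKO 1 to 5. The rise was 2.27 (SE 0.36, adjusted p = 0.00792). Both Apol9 genes kept the groups apart, but 52.3% of the Apol9b and 16.5% of the Apol9a transcript 50-mers occur in the other, so their split is uncertain.

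**Figure D2:**
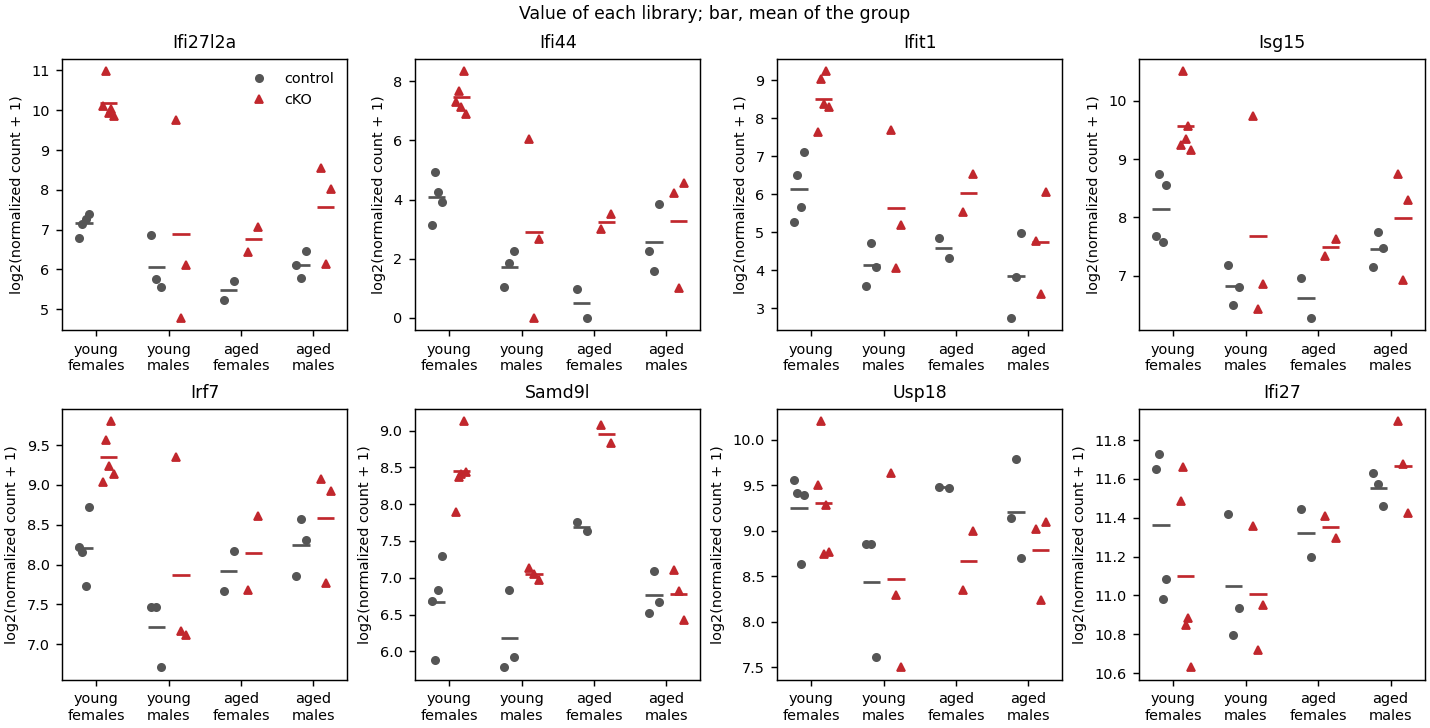
Each panel shows 1 gene, with log2(normalized count + 1) on the vertical axis and the 4 tables along the horizontal axis; grey circles are control and red triangles cKO libraries, and bars are group means. In young females the groups separate for Ifi27l2a, Ifi44, Ifit1, Isg15, Irf7 and Samd9l and overlap for Usp18 and Ifi27, and in young males 1 cKO library stands above the rest for Ifi27l2a, Ifit1, Isg15 and Irf7.

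The cKO libraries of young females differed in how far the genes stood above the controls. The median over the 40 genes, relative to the mean of the controls, was 0.76, 1.48, 0.75, 1.58 and 0.86 (log2) in cKO 1 to 5, and -0.38, 0.18, -0.18 and 0.45 in controls 1 to 4. So cKO 2 and cKO 4 were highest, and control 4 was the highest control. Library names fall into series of numbers, and libraries of 1 series deviated together, so each cKO library was also set against the controls of its own series. The median difference of the 40 genes was 1.34 for controls 1 and 2 with cKO 1 and 2, 1.25 for control 3 with cKO 3 and 4, and 0.32 for control 4 with cKO 5. With the series as a block 29 of the 40 genes rose rather than 18. Calls over all genes tested also grew severalfold with the block, both upward and downward, as given in the closing section, so the gain was not particular to the 40 genes. Under that fit Stat2, Irf9, Ddx58, Mx1, Mx2, Gbp7, Dtx3l, Parp14, Eif2ak2, Bst2 and Rsad2 joined the genes named above, with adjusted p between 0.00289 (Ddx58) and 0.0467 (Gbp7). The authors' deposited table, which lists 30 of the 40 genes, called 22 of them higher, where 3.3% of its 9300 genes with an adjusted p were. Besides the GTPases given above, its calls included Ddx58, Irf9, Dtx3l, Eif2ak2 and Bst2 (adjusted p = 0.0103, 0.0315, 0.0293, 0.0183 and 0.0153). The fit without a block did not call those genes. Leaving out each library in turn left between 11 and 20 genes called; the low value of 11 came without control 1 and also without control 3. The calls that held without any 1 library were those of Irf7, Ifih1, Dhx58, Ifit1, Trim30a, Samd9l, Ifi27l2a, Ifi44, Rtp4, Apol9a and Apol9b, and the other 7 calls were lost at least once.

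**Figure D3:**
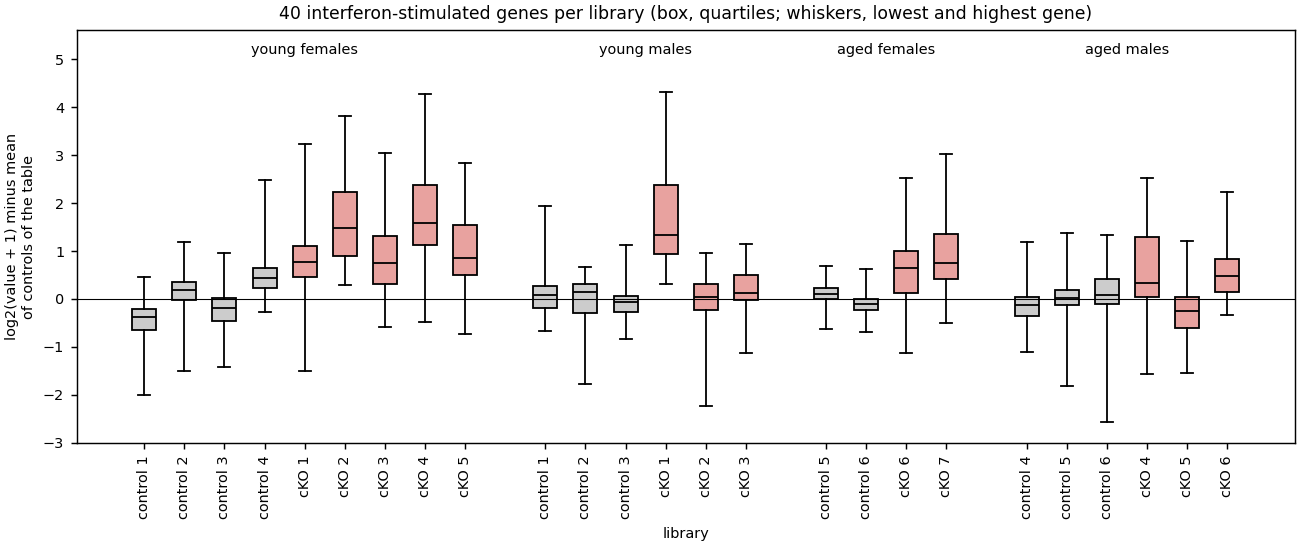
Each box shows the 40 genes in 1 library as log2(value + 1) minus the mean of the controls of the table, with the median as a line, quartiles as the box and the lowest and highest gene as whiskers; grey boxes are control and red boxes cKO libraries. The medians of the 5 young female cKO libraries lie between 0.75 and 1.58 and above those of all controls, and of the 3 young male cKO libraries cKO 1 alone, at 1.34, is clear of the controls.

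Some markers of other cells and of keratinocytes differed with the genotype in young females. All 10 Langerhans cell and myeloid markers had changes above 0, with a median of 0.43, none was at 0 in every library, and 1 rose (Csf1r, the receptor for the growth factor CSF1, 0.78, SE 0.15, adjusted p = 0.017). Summed over the list, controls had 18691 to 24331 and cKO libraries 24878 to 34670, without overlap; Cd74, the largest value of the sum, is also an interferon gamma target. Cd207, which encodes langerin and defines Langerhans cells, was 937, 818, 662 and 1045 in controls 1 to 4 and 993, 1129, 1126, 1699 and 1100.1 in cKO 1 to 5. The 8 T cell and NK markers summed to between 889 and 1359 in controls and between 844 and 2159 in cKO libraries. Their median change was 0.01 and none of them passed the test. Of 6 plasmacytoid dendritic cell markers, among them the member Bst2, 4 had changes above 0, with a median of 0.61. Their sums overlapped and ranged lower in cKO libraries, at 15060 to 23148, than in controls, at 20043 to 26632. In that list Tcf4 alone rose, by 0.70 (SE 0.08, adjusted p = 9.79e-04). Siglech, which defines that cell, was near 0, at 0, 1.28, 0 and 0 in controls 1 to 4 and 5.44, 2.62, 0, 2.69 and 0.866 in cKO 1 to 5. Of 7 neutrophil markers 2 were tested and 6 had changes above 0, with a median of 0.27. The neutrophil marker S100a8, which stressed keratinocytes also express, rose by 2.76 (SE 0.67, adjusted p = 0.0465), and Ly6g, which defines neutrophils, was 0, 0, 0 and 0 in controls 1 to 4 and 0, 1.32, 0, 0 and 0 in cKO 1 to 5. Among 8 keratinocyte markers Krt1 rose by 1.25 (SE 0.17, adjusted p = 0.00322) and Ivl by 1.33 (SE 0.22, adjusted p = 0.00834), both genes of differentiating layers; 5 of the 8 changes were above 0 and their median was 0.05. The part that other cells have in the change of the interferon-stimulated genes was not tested.

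The heterozygous females entered through the authors' deposited table, which stops partway through the alphabetical gene list at Olfr577 and covers 30 of the 40 genes. In the authors' deposited table all 30 genes had fold changes above 0 and 5 were higher at an adjusted p below 0.05, where 0.26% of the 9233 genes with an adjusted p were. They were Ifi44 at 3.34 (SE 0.55, adjusted p = 2.07e-06), Ifi27l2a at 2.32 (SE 0.35, adjusted p = 6.85e-08) and Apol9a at 1.79 (SE 0.30, adjusted p = 2.14e-06) on the log2 scale of the authors' deposited table. Apol9b at 1.66 (SE 0.38, adjusted p = 0.0119) and Bst2 at 1.28 (SE 0.24, adjusted p = 1.69e-04) were the others in the authors' deposited table. Their median over the 30 genes was 0.83, against 1.06 for the homozygous cKO in the authors' deposited table of that comparison. Both tables use female controls of the same set, and the control means of the heterozygous table were proportional to the mean of controls 3 and 4, at 1.15 times it (median over 24 members, SD of the log2 ratio 0.0113). All 5 cKO libraries set against those same 2 controls had a median of 0.86 over the 30 genes, as a difference of mean log2(value + 1). That is another measure than the authors' fold change. Also, cKO 1 and 2 belong to a series of library numbers that holds no heterozygous library and neither of those 2 controls. The difference between heterozygous and homozygous epidermis was not tested.

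In young males 1 of the 3 cKO libraries carried the interferon-stimulated genes at a high level. Of the 40 genes 37 passed the filter (Ifi44, Ifit3 and Ifit3b did not) and 0 passed the limma test in either direction, where 0.0146% of the 13743 genes tested rose and 0% fell. An unadjusted p below 0.05 was reached upward by 4 (Gbp2, Herc6, Samd9l and Ifih1), against 1.4% of the genes tested. The changes ran from -0.51 (Mx1) to 1.51 (Ifit1) and their median was 0.67. Of the 40 changes 36 were above 0, against 49.1% of the genes tested. But the median relative to controls was 1.34 in cKO 1, 0.04 in cKO 2 and 0.12 in cKO 3. In cKO 1 39 of the 40 genes were above all 3 controls, in cKO 2 8 and in cKO 3 15. The share of all genes above the controls in a single library was not counted, so these counts have no background beside them. Every cKO library was above every control in 4 genes (Gbp2, Herc6, Samd9l and Cmpk2), against 3.46% of the genes tested. The authors' deposited table called 0 of 29 members with an adjusted p higher, where 0.0989% of its 11118 genes were. Against the control of its own series of library numbers the median difference was 1.39 for cKO 1, -0.02 for cKO 2 and 0.40 for cKO 3. Without control 1 and cKO 1, a comparison added after the data were seen, the median change was 0.12.

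Ifi27l2a was 115.3, 53.0 and 46.4 in controls 1 to 3 and 859.6, 26.6 and 68.3 in cKO 1 to 3 of young males. Irf7 was 175, 176 and 104 in controls 1 to 3 and 649, 142 and 137.6 in cKO 1 to 3. Rtp4 was 27.3, 29.3 and 18.5 in controls 1 to 3 and 349, 23.8 and 35.2 in cKO 1 to 3. In each of these genes cKO 1 stood alone, and cKO 2 and 3 lay within or near the range of the controls, Ifi27l2a of cKO 2 being below all of them. Isg15 was 145, 89.9 and 111.4 in controls 1 to 3 and 854, 85.5 and 114.9 in cKO 1 to 3. Ifit1 was 11.02, 25.4 and 15.9 in controls 1 to 3 and 206, 15.7 and 35.3 in cKO 1 to 3, so that cKO 1 was again the highest library in both genes. Gbp2 had the smallest unadjusted p of the 40 genes, at 198, 281 and 244 in controls 1 to 3 and 773, 297 and 527 in cKO 1 to 3. Its change was 1.05 (SE 0.33, adjusted p = 1). Samd9l was 54.0, 113.1 and 59.4 in controls 1 to 3 and 139, 131 and 125 in cKO 1 to 3. Herc6 was 43.9, 109 and 72.0 in controls 1 to 3 and 158, 137.4 and 128.1 in cKO 1 to 3. In Gbp2, Samd9l and Herc6 all 3 cKO libraries lay above the controls, and in Samd9l and Herc6 they lay close together. Kdm6a was 460, 473 and 573 in cKO 1 to 3, and Gh was 331, 699.9 and 364. Why cKO 1 differed from cKO 2 and 3 was not tested. Langerhans cell and myeloid markers summed to 15458 to 20849 in controls and 13596 to 20337 in cKO libraries, and the groups overlapped. Of the 10 markers 1 had a change above 0, with a median of -0.23, and none passed the test.

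In aged females most of the genes were higher in the 2 cKO libraries than in the 2 controls, with 1 call by limma and 5 in the authors' deposited table. Of the 40 genes 38 passed the filter (Ifi44 and Ifit3b did not) and 1, Samd9l, rose, where 0.171% of the 14652 genes tested rose and 0.498% fell. The changes ran from -0.81 (Usp18) to 2.76 (Ifi44, not tested), with a median of 0.58. Of the 40 changes 38 were above 0, against 50.8% of the genes tested. By series of library numbers the median difference was 0.38 for control 5 with cKO 6 and 0.79 for control 6 with cKO 7. Both cKO libraries were above both controls in 29 genes, against 22.2% of the genes tested, and below both in 2 genes, Usp18 and Mx2, against 22%. An unadjusted p below 0.05 was reached upward by 23 genes, against 5.58% of the genes tested, and downward by Usp18, against 8.74%. Samd9l was 215 and 197 in controls 5 and 6 and 536 and 454 in cKO 6 and 7, a rise of 1.26 (SE 0.16, adjusted p = 0.0425). Ifitm3 was 1945 and 1576 in controls 5 and 6 and 3437 and 3101 in cKO 6 and 7. It came closest of the rest, with a change of 0.90 (SE 0.13, adjusted p = 0.0516). The Samd9l and Ifitm3 groups were well apart and their 2 libraries close together. In the authors' deposited table, which does not list Samd9l, 5 of the 30 members listed were higher, where 1.46% of its 9270 genes with an adjusted p were. They were Gbp2 at 1.76 (SE 0.30, adjusted p = 7.73e-07), Ifitm3 at 0.89 (SE 0.16, adjusted p = 4.37e-06) and Lgals3bp at 0.83 (SE 0.20, adjusted p = 0.00137) on the log2 scale of the authors' deposited table. Gbp7 at 1.23 (SE 0.31, adjusted p = 0.00381) and Apol9a at 1.86 (SE 0.52, adjusted p = 0.0111) were the others in the authors' deposited table.

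Gbp2 was 300.2 and 221 in controls 5 and 6 and 642 and 1126 in cKO 6 and 7 of aged females (1.72, SE 0.29, adjusted p = 0.0711). Rtp4 was low in all 4 libraries, at 13.4 and 7.05 in controls 5 and 6 and 43.5 and 86.9 in cKO 6 and 7. It had a change of 2.54 (SE 0.51, adjusted p = 0.0947). Ifi27l2a was 36.6 and 51.6 in controls 5 and 6 and 86.1 and 134 in cKO 6 and 7 (1.28, SE 0.34, adjusted p = 0.161). In these 3 genes both cKO libraries were above both controls without passing the unblocked limma test. Gbp2 was called by the authors' deposited table, as given above, and with the series of library numbers as a block (adjusted p = 0.0459). Irf7 was 202 and 288 in controls 5 and 6 and 204 and 389 in cKO 6 and 7. Isg15 was 124 and 76.8 in controls 5 and 6 and 161 and 198 in cKO 6 and 7. Irf7 had a change of 0.22 (SE 0.34, adjusted p = 0.839) and Isg15 one of 0.86 (SE 0.29, adjusted p = 0.255). Usp18 went the other way, at 714 and 711 in controls 5 and 6 and 324 and 511 in cKO 6 and 7. It had a change of -0.81 (SE 0.22, adjusted p = 0.18). The call of Samd9l was lost when any 1 of the 4 libraries was left out, which leaves a group of 1 library assumed to vary like the other group, and also without the filter, without the intensity trend or with quantile normalization. All 10 Langerhans cell and myeloid markers had changes above 0, with a median of 0.33. Their sums of 30277 to 34944 in controls and 32109 to 41870 in cKO libraries overlapped. The 8 T cell and NK markers summed to 1335 to 1398 in controls and 1725 to 1766 in cKO libraries. None of the markers of these lists passed the test. Of 7 neutrophil markers 2 were tested and 1, S100a9, rose, by 2.54 (SE 0.35, adjusted p = 0.0478). Only 3 of the 7 neutrophil marker changes were above 0, with a median of 0. The part of these cells in the change was not tested.

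In aged males 0 of the 39 genes that passed the filter passed the limma test, where 0.00698% of the 14330 genes tested rose and 0.00698% fell. An unadjusted p below 0.05 was reached upward by 2, Zbp1 and Ifi27l2a, against 0.461% of the genes tested. The changes ran from -0.67 (Gbp3) to 1.63 (Ifit3), with a median of 0.14. Of the 40 changes 30 were above 0, against 49.9% of the genes tested. The median was 0.045 without the library labelled cKO 4 and 0.33 without the one labelled cKO 5. The authors' deposited table called 0 of its 30 listed members higher, where 0% of its 12347 genes with an adjusted p were. Every cKO library was above every control in 1 gene (Zbp1), against 2.36% of the genes tested. Zbp1 was 22.3, 10.9 and 21.7 in the libraries labelled control 4 to 6 and 71.4, 27.0 and 53.4 in those labelled cKO 4 to 6. The change was 1.38 (SE 0.49, adjusted p = 0.999). Ifi27l2a was 67.9, 54.1 and 87.5 in the libraries labelled control 4 to 6 and 371, 69.6 and 258 in those labelled cKO 4 to 6. It was high in the libraries labelled cKO 4 and cKO 6, where Kdm6a was low (584 and 673) and Gh was high (866 and 843). It lay among the controls in the library labelled cKO 5, where Kdm6a was 1322 and Gh was 0. The libraries labelled control 5 and control 6, in which Gh was high and Kdm6a was not low, had Ifi27l2a values near that of the library labelled control 4. Whether Ifi27l2a goes with Kdm6a or with Gh was not tested.

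Isg15 was 142, 216 and 178 in the libraries labelled control 4 to 6 and 430.3, 121 and 316 in those labelled cKO 4 to 6 of aged males. Ifit1 was 5.70, 13.1 and 30.4 in the libraries labelled control 4 to 6 and 26.1, 9.30 and 66.1 in those labelled cKO 4 to 6. Irf7 was 231, 381 and 317 in the libraries labelled control 4 to 6 and 538, 218 and 485 in those labelled cKO 4 to 6. In Isg15 and Irf7 the libraries labelled cKO 4 and cKO 6 were again the highest 2, and in Ifit1 the library labelled control 6 lay between them. The median of the 40 genes relative to the controls was 0.34, -0.25 and 0.49 in the libraries labelled cKO 4 to 6, and -0.12, 0.01 and 0.09 in those labelled control 4 to 6. Against the control of the same series it was 0.56, -0.28 and 0.27. Leaving out the libraries labelled control 5, control 6 and cKO 5, which leaves 1 control, assumed to vary like the 2 cKO libraries, raised the median change to 0.35, again with 0 of the members called; the smallest adjusted p among them was that of Ifi27l2a (2.17, adjusted p = 0.127). Langerhans cell and myeloid markers summed to 18192 to 20103 in the libraries labelled control and 16375 to 24229 in those labelled cKO, and the groups overlapped; 3 of the 10 changes were above 0, with a median of -0.08.

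**Figure D4:**
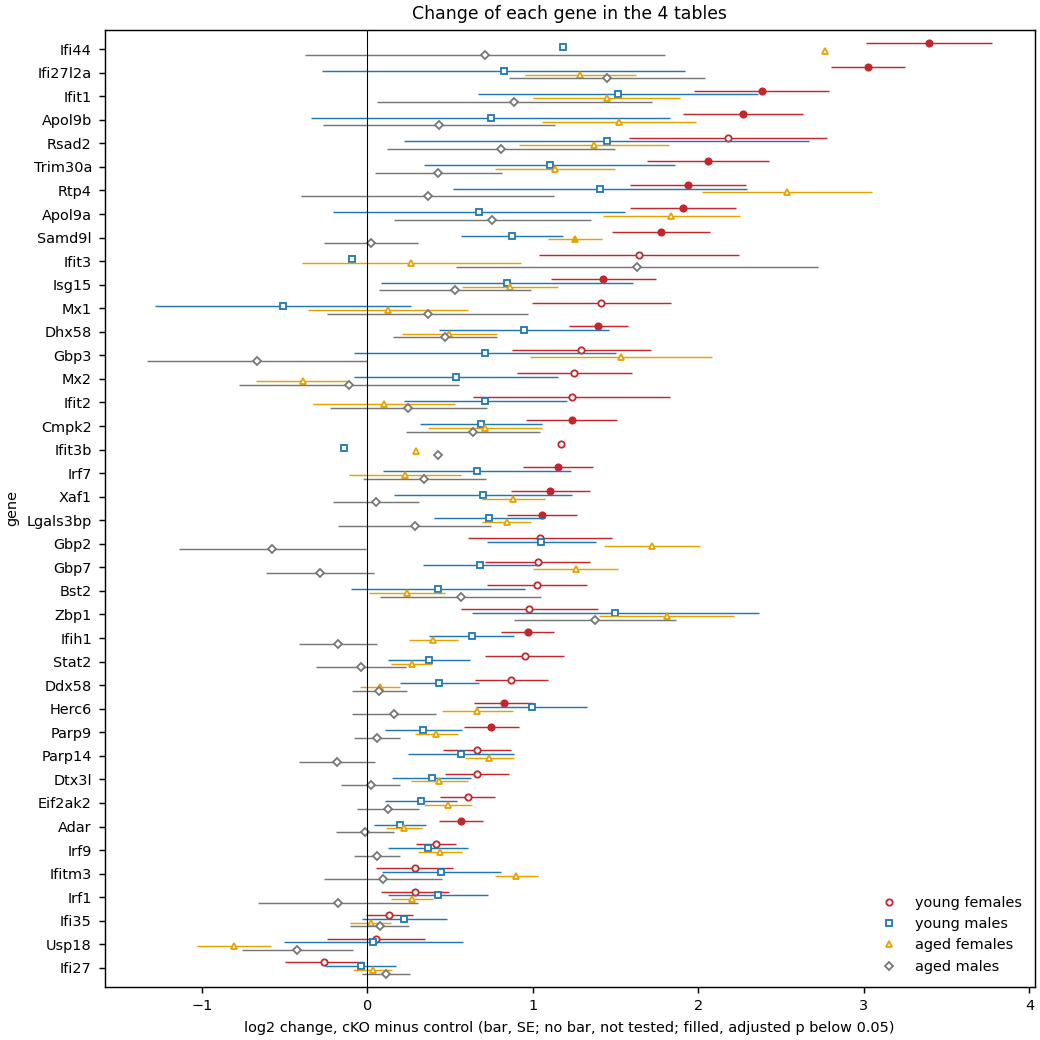
Points give the log2 change of each gene, cKO minus control, in the 4 tables, with bars of 1 SE, filled where the adjusted p was below 0.05 and without a bar where the gene was not tested. Filled points are the 18 genes of young females and Samd9l of aged females, and the SE of young males is wide for the genes in which only cKO 1 was high.

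Whether the tables differ was tested gene by gene as the difference of their log2 changes. None of the 40 genes passed in any of 5 pairs of tables, with 0%, 0.00725%, 0%, 0.0142% and 0% of all genes called for young females minus young males, young females minus aged females, young females minus aged males, aged females minus aged males, and young males minus aged males. At an unadjusted p below 0.05 the same pairs gave 0, 6, 14, 6 and 1 of the 37, 38, 39, 38 and 37 members tested. The share of all genes at that threshold was not counted, so these numbers have no background beside them. The largest difference in evidence was Samd9l, 1.77 in young females and 0.02 in aged males (difference 1.75, SE 0.41, adjusted p = 0.897). Those fits had no block. With the series of library numbers as a block in young females, young males and aged males, added after the data were seen, again none of the 40 genes passed. The pairs then gave 3, 9, 19, 9 and 4 of the members tested at an unadjusted p below 0.05, again without a count over all genes. The smallest adjusted p was then that of Ifih1, 0.96 in young females and -0.18 in aged males (difference 1.14, SE 0.17, adjusted p = 0.232). The calls of young females are not shown by either fit to differ from the other tables.

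Few other genes of the pathway passed the test in young females. Of 21 interferon ligand genes 12 were at 0 in every library, among them Ifnb1, and only Ifng reached the filter, at 5.89, 2.52, 13.1 and 14.1 in controls 1 to 4 and 10.8, 33.6, 8.03, 40.2 and 1.74 in cKO 1 to 5 (a change of 0.65, SE 0.79, adjusted p = 0.729). No one of the 11 receptor and signalling genes passed the test. Of 12 sensing adaptors and kinases Irf5, a factor that relays Toll-like receptor signals, fell by 0.49 (SE 0.09, adjusted p = 0.0154), and of 10 negative regulators 0 passed. MHC class I and immunoproteasome genes, which answer to both interferon types, gave 0 of 12 with a median of 0.08. Interferon gamma targets gave 0 of 13, 11 of them tested, with a median of 0.52. The Oas genes, whose enzymes make the activator of RNase L, gave 5 risers of 12, 9 of them tested, with a median of 1.18, of which Oas2 was the largest at 2.56 (SE 0.26, adjusted p = 6.84e-04). In young males, aged females and aged males none of these genes passed the test.

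The genes are spread over 14 chromosomes, and 15 of the 40 have exons that overlap another annotated gene. For 10 of these the other gene is on the opposite strand, as for Irf7 at chr7:141262706-141266481 with Phrf1, Adar at chr3:89715022-89753446 with Chrnb2, Dhx58 at chr11:100694884-100704271 with Dhx58os, and Dtx3l with Parp9. The library kit marks strand, but whether counting used it is not given in the sources used here, so reads of such pairs cannot be told apart. Of the 18 genes that rose in young females 6 are among the 15 (Irf7, Dhx58, Herc6, Parp9, Adar and Rtp4), and Ifi27l2a, Ifi44, Ifit1, Isg15 and Samd9l are not.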

How the data were processed

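PolyA RNA of 28 mouse epidermis libraries was prepared with a directional kit, per the labels' protocols. STAR and DESeq2 and the build GRCm38 (mm10) are named in the submitters' processing notes, without versions or parameters. The authors deposited 4 tables of normalized read counts per library (a scaled signal, not whole reads, scaled separately in each table) and 5 comparison tables with mean signal, log2 fold changes, their standard errors and test statistics (scores), and p-values. The heterozygous libraries have no per-library values here. Read depth is therefore unknown and no counting intervals are given.

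From the deposited values, log2(value + 1) was tested within each table by limma 3.58.1 (R 4.3.3, intensity trend). Genes needed a value of at least 10 in a number of libraries equal to the size of the smaller arm. P-values were adjusted by Benjamini-Hochberg across the genes kept, with a threshold of 0.05. The procedure was tested on simulated data. The 26 symbols turned into dates were left out. Differences between tables used the difference of log2 changes over its standard error, with a t distribution. All 40 members were accounted for. Members called, and the one nearest the threshold, were given with every library. The members, gene lists and tests were chosen with earlier results of these data known, and some genes shown with all values were chosen for their role. Alternatives were another pseudocount, filters, scalings, no intensity trend, a block and each library left out.

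Libraries were paired by the series of numbers in their names. Deviations from group means of libraries of 1 series correlated at 0.634, 0.425 and 0.403 in young females, 0.518, 0.399 and 0.420 in young males, and 0.245, 0.303 and 0.672 in aged males, so the numbers were taken to pair them there, every correlation of 3 pairs being above 0.1. In aged males control 4 did not correlate best with the cKO library of its own series.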

Additional observations from a re-analysis of the deposited data

Results flagged for a closer look

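Of 80 groups of 4 or 5 libraries looked at, 3 held a library far from the others by the Dixon gap, which chance gives in about 1 of 20 groups. Ifi27l2a in young female cKO 2 was 2013, while the other cKO libraries lay between 922 and 1111, and all of these were above the highest control. Ifit2 in young female cKO 4 was 58.4, while the others lay between 18.9 and 26.1; its change did not pass the test. Dtx3l in young female control 1 was 431, while the other controls lay between 708 and 762.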

How the results depend on the processing

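In young females 11 of the 18 member calls were kept under every setting tried, and no member with a call changed sign. With the replicate block (series of library numbers) 29 members were called in young females, with 843 of all genes higher and 1168 lower, against 214 and 333 without it; the block called 7 of all genes higher in young males and changed no other member count there or in aged males. In aged females, with 2 pairs that the check does not establish (correlation 0.229), the block called 5 members (Samd9l, Gbp2, Ifitm3, Apol9a and Lgals3bp), with 124 of all genes higher and 307 lower against 25 and 73. Leaving out each replicate in turn, young females had 11 to 20 members called, with 103 to 177 genes higher and 171 to 267 lower. Young males had 1 to 3 genes higher, and the members' median ran from 0.093 (without cKO 1) to 0.85. Aged females had 0 members, 1 to 13 genes higher and 12 to 17 lower, with a median of 0.50 to 0.75. Aged males had 0 to 1 gene higher and 0 lower, with a median of 0.045 to 0.33. Without young male control 1 and cKO 1 together, added after the data were seen, 0 genes were higher and the median was 0.12. Without the aged male libraries labelled control 5, control 6 and cKO 5, 32 genes were higher and 26 lower. In aged females the member count was 0 with no filter (0 genes higher, 1 lower), with no intensity trend (2 and 5) and with quantile normalization (13 and 47), and the filter at 50 left 16 genes higher. In aged males the filter at 50 left 0 genes in either direction, and no filter and no intensity trend each gave 2 lower; no intensity trend gave 1 higher in young males. The causes of these shifts were not tested. With no read depth, the precision of low genes such as Ifit2, Ifit3 and Ifit3b is limited by their values near the filter.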
